A study of Mus musculus with 8 samples.

Results

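Keratins are the intermediate filament proteins of epithelial cells. All genes of the mouse read-count table whose symbol is Krt followed by a number, with or without one letter, were taken as the family, and genes of keratin-associated proteins were left out. This gave 50 keratin genes out of 25913 genes, of which 27 are type I, 22 are type II and 1, Krt222, is an orphan member. By known expression 3 are basal keratins, 4 are stress keratins of activated epidermis, 6 are simple epithelial keratins, 13 are keratins of squamous epithelium, 8 belong to the root sheath of the hair follicle, 14 are hair keratins and 2 fall in none of these classes. The 27 keratins on chromosome 11 lay between positions 99232761 and 100269871, and the 23 on chromosome 15 lay between 101349571 and 102032026 (GRCm38).

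The libraries were made from olfactory epithelium of C57BL/6J mice aged 40 weeks, with poly(A) selection and a stranded kit. The study deleted the receptor gene Igf1r in the cells that express Omp, the marker gene of mature olfactory sensory neurons, in homozygous form. There were 4 libraries titled OMP_IGF1R (numbers 11, 12, 17 and 18) and 4 titled IGF1R_flfl (numbers 1, 2, 3 and 13), and by the titles the OMP_IGF1R libraries would be the deletion and the IGF1R_flfl libraries its controls. The genotype field contradicts the titles, since it calls the OMP_IGF1R libraries control, "OMPflfl (Ctrl)", and the IGF1R_flfl libraries knockout, "OMPIGF1 (KO)". Groups follow the titles throughout, so every direction is that of the titles and not of a verified genotype. The design text names sensory neurons as the source, but by the protocol the whole epithelium was dissected, so cells in which Omp is silent and Igf1r is kept were sequenced as well. Nothing in the labels ties each library to its own animal, and the p-values therefore describe the spread among these libraries, part of which may be technical. Serial numbers in the titles fall in separate ranges for the groups, and a batch that follows them cannot be told apart from the group.

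A keratin filament is built from pairs of one type I and one type II protein, and each epithelial cell state uses its own pair. Krt5 pairs with Krt14 in basal cells, Krt8 pairs with Krt18 in simple epithelia, Krt4 pairs with Krt13 in the lining of the mouth and oesophagus, and Krt1 pairs with Krt10 in cornifying skin. In the olfactory epithelium Krt5 and Krt14 mark the horizontal basal cells, a reserve stem cell on the basal lamina, while Krt8 and Krt18 are made by the sustentacular cells, glands and duct cells.

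Library totals ran between 18802471 and 27793375 reads assigned to genes. Igf1r itself was lower in the libraries titled OMP_IGF1R, with a log2 fold change of -0.66 and an edgeR adjusted p of 0.0117. Omp stood at 1708 to 2185 CPM (read counts scaled to library size) in OMP_IGF1R libraries and at 4470 to 6734 CPM in IGF1R_flfl libraries. The sustentacular markers Cyp2a5 and Ugt2a1 were abundant in every library, with 11856 to 12388 and 6925 to 7397 CPM in OMP_IGF1R libraries, against 9816 to 13243 and 6201 to 7440 CPM in IGF1R_flfl libraries. Beside these labelled-tissue markers, 3 libraries stood apart. OMP_IGF1R 17 carried skeletal muscle and squamous transcripts, IGF1R_flfl 2 carried transcripts of olfactory bulb and oligodendrocytes, and IGF1R_flfl 13 had the highest odorant-binding protein transcripts.

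Simple keratins made up most of the keratin message in both groups. Per kilobase of exon, which allows levels of different genes to be added, they took 83.2%, 83.0%, 51.6% and 82.6% of the keratin CPM in OMP_IGF1R 11, 12, 17 and 18, against 86.6%, 84.2%, 86.4% and 82.9% in IGF1R_flfl 1, 2, 3 and 13. Basal keratins took 12.8%, 13.4%, 15.7% and 13.7% in OMP_IGF1R libraries, against 9.96%, 11.6%, 10.1% and 12.4% in IGF1R_flfl libraries. The basal share of every OMP_IGF1R library was thus above that of every IGF1R_flfl library. Squamous keratins took 24.4% in OMP_IGF1R 17 and 0.738% to 0.887% in the other OMP_IGF1R libraries, against 0.722% to 1.84% in IGF1R_flfl libraries. Hair keratins took 1.90% in OMP_IGF1R 17, 0.0578% to 0.0796% in the other OMP_IGF1R libraries and 0.0684% to 0.127% in IGF1R_flfl libraries.

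**Figure D1:**
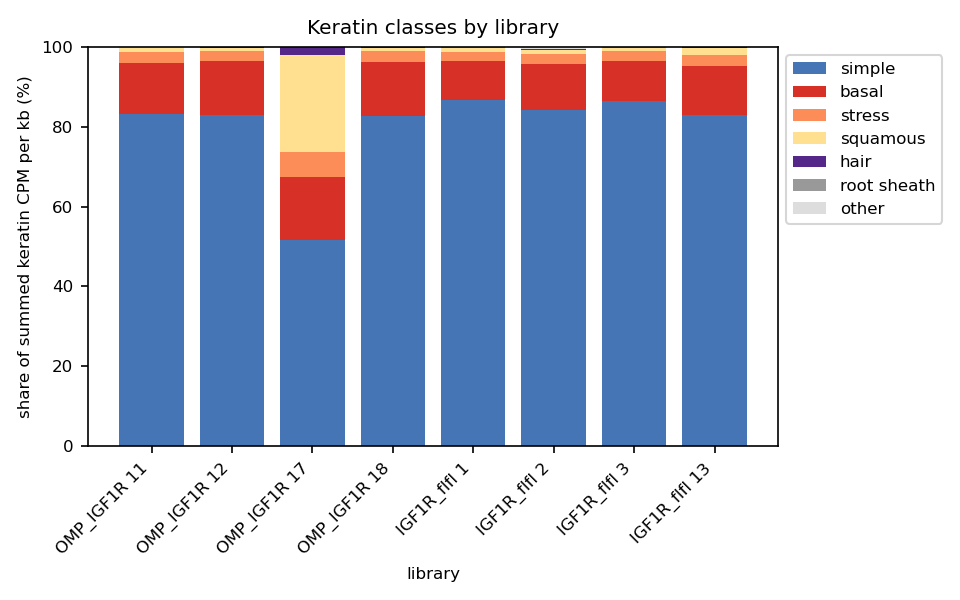
Stacked bars of the share (%) of each keratin class in the summed keratin CPM per kilobase of exon of each library, with the OMP_IGF1R libraries left of the IGF1R_flfl libraries. The simple keratins fill most of each bar, and OMP_IGF1R 17 has an added squamous block that is 24.4% of its keratin total.

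Of the 50 keratins, 17 had enough reads to be tested and 1, Krt17, was called higher at an adjusted p under 0.05 in edgeR's quasi-likelihood test, with 0 called lower. That is 5.88% of the tested keratins, beside 8.20% of all 17381 genes tested that were called, 2.83% higher and 5.37% lower. With raw library totals in place of TMM scaling the 492 higher and 933 lower genes became 775 higher and 542 lower, and the keratins called higher became 3 (Krt5, Krt17 and Krt23). The log2 fold change, OMP_IGF1R over IGF1R_flfl, was positive for 11 tested keratins and negative for 6, with a median of 0.08 beside -0.01 over all genes tested. For 4 tested keratins (Krt5, Krt14, Krt17 and Krt23), or 23.5%, all OMP_IGF1R libraries lay to one side of all IGF1R_flfl libraries, beside 16.9% of all genes tested. Without OMP_IGF1R 17 the called keratins were Krt5 and Krt14, both higher, beside 6.73% of 17484 genes called in either direction, 2.51% called higher and 4.22% called lower.

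The basal pair Krt5 and Krt14 had higher values in every OMP_IGF1R library than in any IGF1R_flfl library. Both fell short of the threshold with all libraries and passed it without OMP_IGF1R 17. On leaving out any other single library neither was called. Krt5 (ENSMUSG00000061527, GRCm38 chromosome 15, 101707070 to 101712891), the type II keratin of basal cells, had 123, 130, 199 and 130 CPM in OMP_IGF1R 11, 12, 17 and 18, against 84.0, 90.7, 108 and 109 CPM in IGF1R_flfl 1, 2, 3 and 13. Each OMP_IGF1R library was above each IGF1R_flfl library, and number 17 was the highest of all. The means were 146 ± 35.7 CPM in OMP_IGF1R and 97.8 ± 12.3 CPM in IGF1R_flfl (SD, n = 4 each), with a log2 fold change of 0.58 (SE 0.157) and an edgeR adjusted p of 0.0547, just above the threshold of 0.05. Without OMP_IGF1R 17 the log2 fold change was 0.40 (SE 0.0954) at an edgeR adjusted p of 0.0469, and without both OMP_IGF1R 17 and IGF1R_flfl 2 it was 0.37 at an edgeR adjusted p of 0.0674.

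Krt14 (ENSMUSG00000045545, chromosome 11, 100203162 to 100207548), the type I partner of Krt5, had 46.7, 48.5, 126 and 50.5 CPM in OMP_IGF1R 11, 12, 17 and 18, against 34.6, 29.8, 36.6 and 39.2 CPM in IGF1R_flfl 1, 2, 3 and 13. The groups did not overlap, and number 17 stood far above the other OMP_IGF1R libraries. The means were 68.0 ± 38.8 CPM in OMP_IGF1R and 35.1 ± 3.94 CPM in IGF1R_flfl (SD, n = 4 each), with a log2 fold change of 0.96 (SE 0.308) and an edgeR adjusted p of 0.0947. Without OMP_IGF1R 17 the change was smaller and better determined, 0.48 (SE 0.0895) at an edgeR adjusted p of 0.0216.

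Krt15, another type I keratin of basal keratinocytes, gave no clear direction. It had 6.58, 2.90, 29.6 and 5.11 CPM in OMP_IGF1R 11, 12, 17 and 18, against 4.60, 6.78, 3.77 and 15.2 CPM in IGF1R_flfl 1, 2, 3 and 13. The groups overlapped, with the highest values in OMP_IGF1R 17 and IGF1R_flfl 13. The log2 fold change was 0.55 (SE 0.710, edgeR adjusted p 0.695) with all libraries and -0.63 (edgeR adjusted p 0.504) without OMP_IGF1R 17.

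The 3 basal keratins together summed to 225 ± 86.8 CPM in OMP_IGF1R, or 181 ± 4.6 CPM without number 17, against 140 ± 18.6 CPM in IGF1R_flfl (SD, n = 4, 3 and 4). In bulk tissue, fewer cells of a type and less RNA per cell cannot be told apart, and the same holds for more cells and more RNA per cell. Of 10 markers of horizontal basal cells, all tested, 3 were called higher and 0 lower, or 30.0% beside 8.20% of all genes tested, with a median log2 fold change of 0.31. The 3 were Dsc3, Itgb4 and Lamb3, which are counted again among the anchoring genes, and 6 of the 10 markers stand in another list used here. The markers were chosen with earlier results of these data known, so their share is not a separate test. Without OMP_IGF1R 18 the count was 0, without IGF1R_flfl 1 it was 1, without OMP_IGF1R 12 it was 2, and on leaving out each other library it was 3. Their summed level was 364 to 411 CPM in OMP_IGF1R libraries and 291 to 346 CPM in IGF1R_flfl libraries. Mature neuron markers moved the other way in the same libraries, with 10 of 10 called lower, beside 5.37% of all genes tested. The neuron markers had a median of -0.67 and sums of 7732 to 9446 CPM in OMP_IGF1R against 13850 to 19470 CPM in IGF1R_flfl. The part of the neuron difference in the basal keratin values was not tested.

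**Figure D2:**
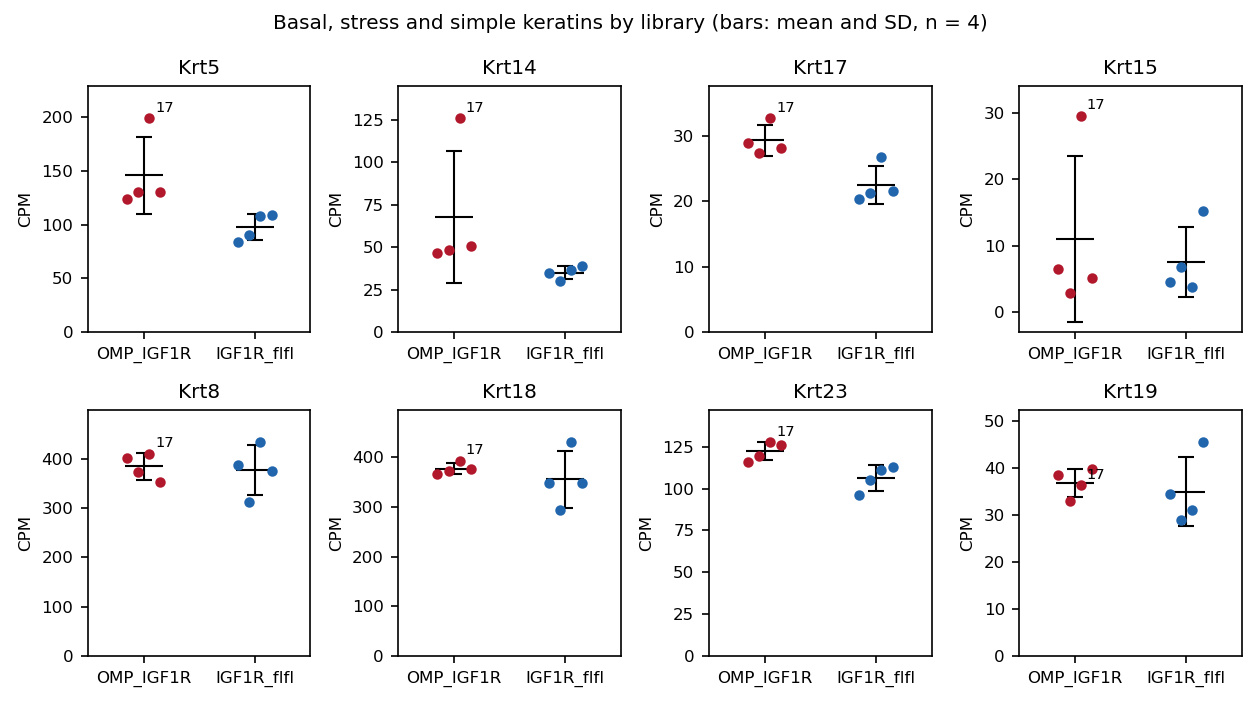
CPM of 8 keratins in each library (points), with the group mean and SD as bars (n = 4 each), the OMP_IGF1R group at the left and OMP_IGF1R 17 marked. For Krt5, Krt14, Krt17 and Krt23 all OMP_IGF1R points lie above all IGF1R_flfl points, while the points of Krt8, Krt18, Krt15 and Krt19 overlap.

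Among the stress keratins, which epidermis turns on after wounding, Krt17 was the called member. Krt17 (ENSMUSG00000035557, chromosome 11, 100256217 to 100261029), a type I keratin also made in basal cells of glands and airways, had 28.9, 27.4, 32.7 and 28.2 CPM in OMP_IGF1R 11, 12, 17 and 18, against 20.4, 21.3, 26.8 and 21.5 CPM in IGF1R_flfl 1, 2, 3 and 13. The groups did not overlap, although OMP_IGF1R 12 and IGF1R_flfl 3 came close. Krt17 rose by 0.38 on the log2 scale (SE 0.0970, edgeR adjusted p 0.0433), with means of 29.3 ± 2.36 CPM in OMP_IGF1R and 22.5 ± 2.91 CPM in IGF1R_flfl (SD, n = 4 each). The call was lost on leaving out any single library other than IGF1R_flfl 3, at edgeR adjusted p-values of 0.0624 (without IGF1R_flfl 2) to 0.102 (without IGF1R_flfl 1), while the log2 fold change stayed between 0.33 and 0.48.

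The other stress keratins were nearly silent outside 2 libraries. Krt6a, the type II partner of Krt16 and Krt17, had 0.255, 0.0377, 66.4 and 0.230 CPM in OMP_IGF1R 11, 12, 17 and 18, against 0.0362, 0.0381, 0.0793 and 2.00 CPM in IGF1R_flfl 1, 2, 3 and 13. Krt16 had 30.0 CPM in OMP_IGF1R 17, 0.255 CPM in OMP_IGF1R 11 and 0 reads in OMP_IGF1R 12 and 18, against 2.59 CPM in IGF1R_flfl 13 and 0 reads in the other IGF1R_flfl libraries. Krt6b had 0.153, 0, 12.6 and 0.0384 CPM in OMP_IGF1R 11, 12, 17 and 18, against 0, 0, 0.0397 and 1.23 CPM in IGF1R_flfl 1, 2, 3 and 13. All 3 were highest in OMP_IGF1R 17 and second in IGF1R_flfl 13, and none passed the filter for testing. A count of 0 allows up to 0.109 to 0.153 CPM, depending on the library, as 3 reads would give. Krt6a and Krt6b are near-identical, as are stretches of Krt14, Krt16 and Krt17, so reads could have been split among them.

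The simple keratins were the most abundant and differed least. Per kilobase of exon, Krt18 averaged 262 CPM in OMP_IGF1R and 247 CPM in IGF1R_flfl, Krt8 averaged 196 and 193 CPM, and the next, Krt23, averaged 78.2 and 67.9 CPM. Krt8, the main type II keratin of simple epithelia, had 403, 373, 411 and 352 CPM in OMP_IGF1R 11, 12, 17 and 18, against 388, 312, 434 and 375 CPM in IGF1R_flfl 1, 2, 3 and 13. Its values overlapped, and the log2 fold change was 0.03 (SE 0.1001, edgeR adjusted p 0.904). Krt18, its type I partner, had 366, 372, 393 and 376 CPM in OMP_IGF1R libraries, against 348, 293, 430 and 348 CPM in IGF1R_flfl libraries. Both ends of that range were IGF1R_flfl libraries, and the log2 fold change was 0.09 (SE 0.104, edgeR adjusted p 0.671).

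Krt7, a type II keratin of ducts and glands, had 38.2, 35.8, 39.0 and 42.9 CPM in OMP_IGF1R 11, 12, 17 and 18, against 42.5, 32.2, 34.6 and 44.3 CPM in IGF1R_flfl 1, 2, 3 and 13. Its values overlapped, with its log2 fold change 0.02 (SE 0.107, edgeR adjusted p 0.928). Krt19, a short type I keratin of ducts and glands, had 38.4, 32.9, 36.4 and 39.8 CPM in OMP_IGF1R libraries, against 34.4, 28.9, 31.1 and 45.5 CPM in IGF1R_flfl libraries. The log2 fold change of Krt19 was 0.08 (SE 0.133, edgeR adjusted p 0.771). The standard errors of Krt7, Krt8, Krt18 and Krt19 leave room for small changes in either direction.

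Krt23, a type I keratin found in several glandular epithelia, was the one simple keratin whose groups did not overlap. It had 116, 120, 128 and 126 CPM in OMP_IGF1R 11, 12, 17 and 18, against 96.1, 105, 111 and 113 CPM in IGF1R_flfl 1, 2, 3 and 13. The log2 fold change of 0.20 (SE 0.0635) missed the threshold, at an edgeR adjusted p of 0.0860. Krt20, the intestinal member of the class, had 3 reads, all in OMP_IGF1R 12. The simple keratins together summed to 960 ± 33.9 CPM in OMP_IGF1R and 912 ± 110 CPM in IGF1R_flfl (SD, n = 4 each). Sustentacular markers, of which 0 of 6 tested were called, summed to 25780 to 27120 CPM in OMP_IGF1R libraries and 23140 to 28930 CPM in IGF1R_flfl libraries.

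The mouth and oesophagus pair, Krt13 with Krt4, had nearly all of its reads in OMP_IGF1R 17. Krt13 (ENSMUSG00000044041, chromosome 11, 100117327 to 100121566), the type I member, had 2, 0, 6728 and 10 reads in OMP_IGF1R 11, 12, 17 and 18, against 0, 0, 1 and 43 reads in IGF1R_flfl 1, 2, 3 and 13. In CPM these were 0.102, 0, 298 and 0.384 in OMP_IGF1R libraries, against 0, 0, 0.0397 and 1.95 in IGF1R_flfl libraries. OMP_IGF1R 17 was 152-fold above the next library, IGF1R_flfl 13. Krt4 (ENSMUSG00000059668, chromosome 15, 101918536 to 101924735), the type II member, had 0.408, 0.226, 205 and 0.499 CPM in OMP_IGF1R 11, 12, 17 and 18, against 0.181, 0.114, 0.119 and 0.545 CPM in IGF1R_flfl 1, 2, 3 and 13. Its log2 fold change was 7.78 (SE 2.51, edgeR adjusted p 0.0947) with all libraries and 0.69 (SE 0.601, edgeR adjusted p 0.546) without OMP_IGF1R 17, so the value rests on that library.

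Other squamous keratins followed the same library. Krt76, a type II keratin of the palate and gums, had 0.918, 0, 20.5 and 0.154 CPM in OMP_IGF1R 11, 12, 17 and 18, against 0.0362, 0, 0 and 5.50 CPM in IGF1R_flfl 1, 2, 3 and 13. Krt24, a type I keratin, had 0.153, 0, 6.55 and 0 CPM in OMP_IGF1R libraries, against 0, 0, 0 and 1.54 CPM in IGF1R_flfl libraries. Krt78, a type II keratin, had 138 reads in OMP_IGF1R 17 and 0 to 5 reads in each other library. Both of the libraries that led for Krt13, OMP_IGF1R 17 and IGF1R_flfl 13, thus led for Krt76 and Krt24 too.

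The cornifying skin keratins did not share this pattern. Krt10 had 8.27, 7.46, 7.74 and 7.10 CPM in OMP_IGF1R 11, 12, 17 and 18, against 8.33, 7.35, 7.57 and 12.1 CPM in IGF1R_flfl 1, 2, 3 and 13 (log2 fold change -0.21, edgeR adjusted p 0.488). Krt1, its type II partner, had 1.02, 1.13, 1.42 and 1.19 CPM in OMP_IGF1R libraries, against 1.48, 1.52, 0.912 and 1.54 CPM in IGF1R_flfl libraries (log2 fold change -0.20, edgeR adjusted p 0.640). Krt80, a type II keratin of many stratified epithelia, had 6.12, 6.07, 8.01 and 6.95 CPM in OMP_IGF1R libraries, against 8.58, 6.29, 7.61 and 7.54 CPM in IGF1R_flfl libraries (log2 fold change -0.15, edgeR adjusted p 0.566). For all 3 the groups overlapped, and OMP_IGF1R 17 was not set apart as it was for Krt13. Krt77, Krt79, Krt9 and Krt12 had 23, 17, 15 and 5 reads in all libraries together, and Krt2 had 0.

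Hair keratins, the hard keratins of hair and nail that some tongue papillae make as well, were close to 0 in all libraries but OMP_IGF1R 17. Krt36, a type I member, had 0.153, 0.151, 22.0 and 0.0768 CPM in OMP_IGF1R 11, 12, 17 and 18, against 0.0724, 0, 0.278 and 0.0908 CPM in IGF1R_flfl 1, 2, 3 and 13. Krt84, a type II member, had 313 reads in OMP_IGF1R 17, 1 read in OMP_IGF1R 11 and 0 reads in every other library. Krt35, Krt32, Krt34 and Krt81 had 68, 15, 10 and 8 reads in OMP_IGF1R 17 and 0 reads elsewhere. IGF1R_flfl 13, second for Krt13 and Krt16, had 0 reads of Krt84 and Krt35. The tested hair keratin, Krt83, had a log2 fold change of -0.41 (edgeR adjusted p 0.677), on 4 to 23 reads per library. Krt33b, Krt86, Krt31, Krt40 and Krt33a had 34, 32, 23, 4 and 1 reads in all, Krt33a and Krt33b being near-identical, and Krt39 and Krt82 had 0.

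Counted over the family, 9 of 50 keratins were at least 10-fold higher in OMP_IGF1R 17 than in any other library, with each other library taken as no lower than 3 reads. Over all genes, 80 of 25913 met this rule, which is 0.309%. The 9 were 3 stress keratins (Krt6a, Krt6b and Krt16), 3 squamous keratins (Krt4, Krt13 and Krt78) and 3 hair keratins (Krt35, Krt36 and Krt84), on both chromosomes, 4 of 27 on chromosome 11 and 5 of 23 on chromosome 15. For 6 of them IGF1R_flfl 13 was second. At least 10 reads were found for 31 keratins in OMP_IGF1R 17 and for 15 to 18 in the other OMP_IGF1R libraries, against 23 in IGF1R_flfl 13 and 16 in each other IGF1R_flfl library.

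**Figure D3:**
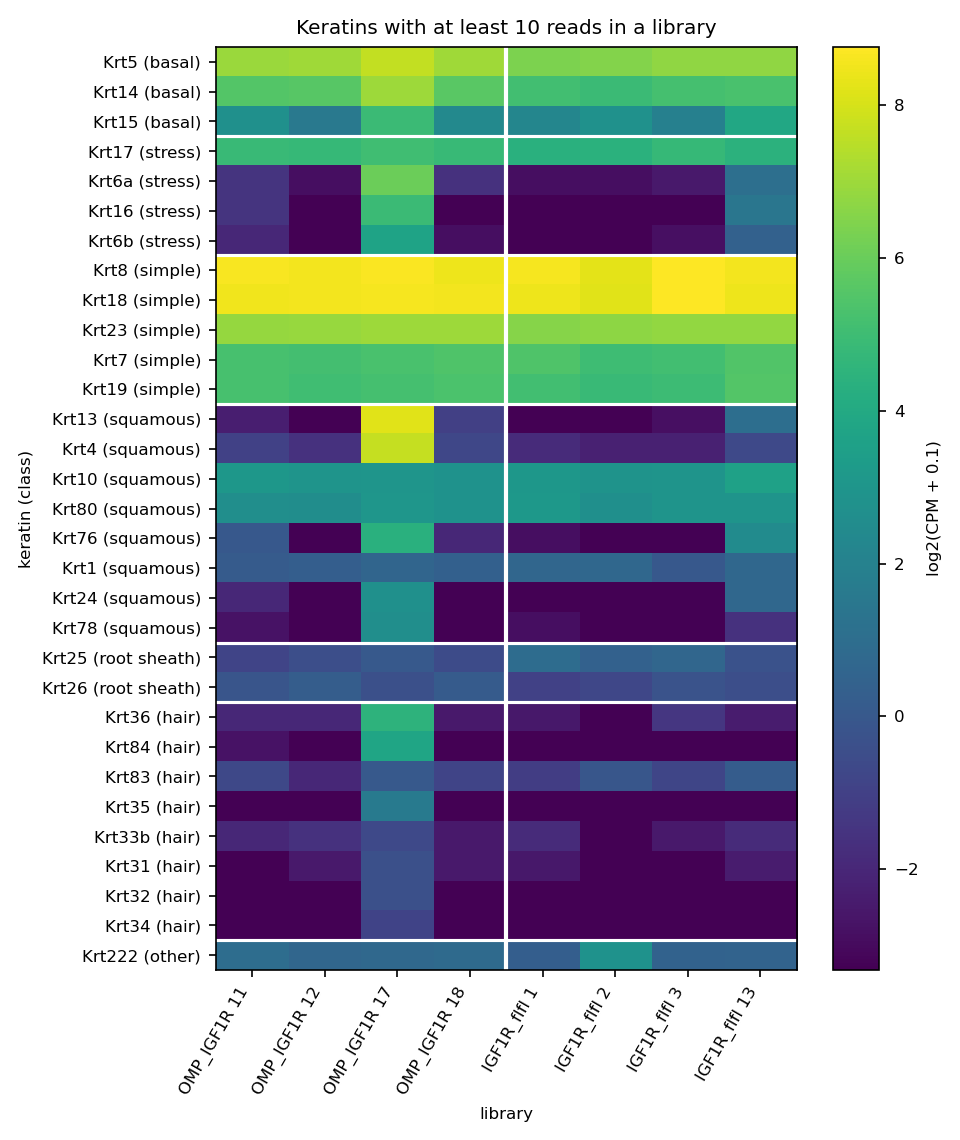
Level of each detected keratin in each library on a log scale of CPM, with keratins in rows by class and the OMP_IGF1R libraries left of the IGF1R_flfl libraries. The column of OMP_IGF1R 17 fills in for stress, squamous and hair keratins, with 31 keratins at 10 reads or more, and IGF1R_flfl 13 fills in part, with 23.

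The sequences before the start sites of 4 keratins are shown, the basal Krt5, whose groups did not overlap, and 3 keratins high in OMP_IGF1R 17. They come from RefSeq promoter entries on GRCm38.p6, which 34 of the 50 keratins have, and are the 250 bases upstream of the start, printed 5′ to 3′ on the strand of the gene, which is the minus strand for all 4. Krt5 lies at chr15:101712906-101713155, Krt13 at chr11:100121567-100121816, Krt36 at chr11:100105627-100105876 and Krt84 at chr15:101532821-101533070. Capitals mark matches on either strand to ATAAAA and TATAAG, which resemble the TATA box, and to TGANTCA, the letters of an AP-1 site, all chosen after the sequences were seen.
Krt5: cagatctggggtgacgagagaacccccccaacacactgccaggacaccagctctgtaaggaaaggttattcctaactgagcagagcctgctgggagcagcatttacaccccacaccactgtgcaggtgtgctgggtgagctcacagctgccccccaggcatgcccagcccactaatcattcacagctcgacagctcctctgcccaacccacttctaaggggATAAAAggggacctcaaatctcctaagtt
Krt13: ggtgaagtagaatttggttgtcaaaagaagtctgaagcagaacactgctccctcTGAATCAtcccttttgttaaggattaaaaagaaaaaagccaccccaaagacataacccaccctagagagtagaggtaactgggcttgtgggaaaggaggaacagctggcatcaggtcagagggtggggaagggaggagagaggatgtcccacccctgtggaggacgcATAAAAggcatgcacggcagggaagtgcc
Krt36: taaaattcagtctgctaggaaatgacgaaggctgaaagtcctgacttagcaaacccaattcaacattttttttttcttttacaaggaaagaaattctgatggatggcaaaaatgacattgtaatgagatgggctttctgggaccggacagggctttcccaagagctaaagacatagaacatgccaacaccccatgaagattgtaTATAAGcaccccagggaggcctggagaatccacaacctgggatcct
Krt84: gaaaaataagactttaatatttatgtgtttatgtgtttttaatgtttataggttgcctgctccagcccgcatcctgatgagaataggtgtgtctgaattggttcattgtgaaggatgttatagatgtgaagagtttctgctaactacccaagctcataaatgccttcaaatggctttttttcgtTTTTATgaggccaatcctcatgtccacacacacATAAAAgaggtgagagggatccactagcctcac

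Krt5 and Krt13 both hold ATAAAA from 29 to 24 bases upstream of the start, Krt84 holds it from 33 to 28 bases upstream and again on the other strand, and Krt36 holds TATAAG from 46 to 41 bases upstream. Krt13 also holds TGANTCA from 196 to 190 bases upstream. Of 32851 promoter entries, 17% held ATAAAA somewhere in the 250 bases, 6.65% held TATAAG and 6.75% held TGANTCA, on either strand. In the window from 40 to 16 bases upstream ATAAAA stood in 2.41% of all entries, and in 14 of the 34 keratins with an entry. These keratins came from several classes and included Krt23 and Krt25 as well as Krt5, Krt13 and Krt84. A match describes letters and is neither a site nor a cause of a level.

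The root sheath keratins were measured near the limit of detection. Krt25, a type I keratin of the inner root sheath, had 9, 17, 21 and 15 reads in OMP_IGF1R 11, 12, 17 and 18, against 50, 33, 37 and 16 reads in IGF1R_flfl 1, 2, 3 and 13. IGF1R_flfl 13 lay among the OMP_IGF1R libraries, and the other IGF1R_flfl libraries lay above them. The log2 fold change was -1.01 (edgeR adjusted p 0.0891) with all libraries, and -1.20 (edgeR adjusted p 0.0427) without IGF1R_flfl 13, which would make Krt25 a lower call. Krt26 had a log2 fold change of 0.66 (edgeR adjusted p 0.182) on 11 to 29 reads per library. Krt27 and Krt75 had 15 reads each, and Krt28, Krt71, Krt73 and Krt74 had 0.

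The orphan Krt222 had 1.89, 1.47, 1.59 and 1.73 CPM in OMP_IGF1R 11, 12, 17 and 18, against 1.12, 7.13, 1.31 and 1.36 CPM in IGF1R_flfl 1, 2, 3 and 13. Its high value was that of IGF1R_flfl 2, and the log2 fold change of -0.71 (edgeR adjusted p 0.503) became 0.41 (edgeR adjusted p 0.222) without that library. In IGF1R_flfl 2 the bulb and oligodendrocyte markers summed to 2123 CPM, against 284 to 324 CPM in the other IGF1R_flfl libraries, and their part in Krt222 was not tested. Krt42 had 0 reads.

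**Figure D4:**
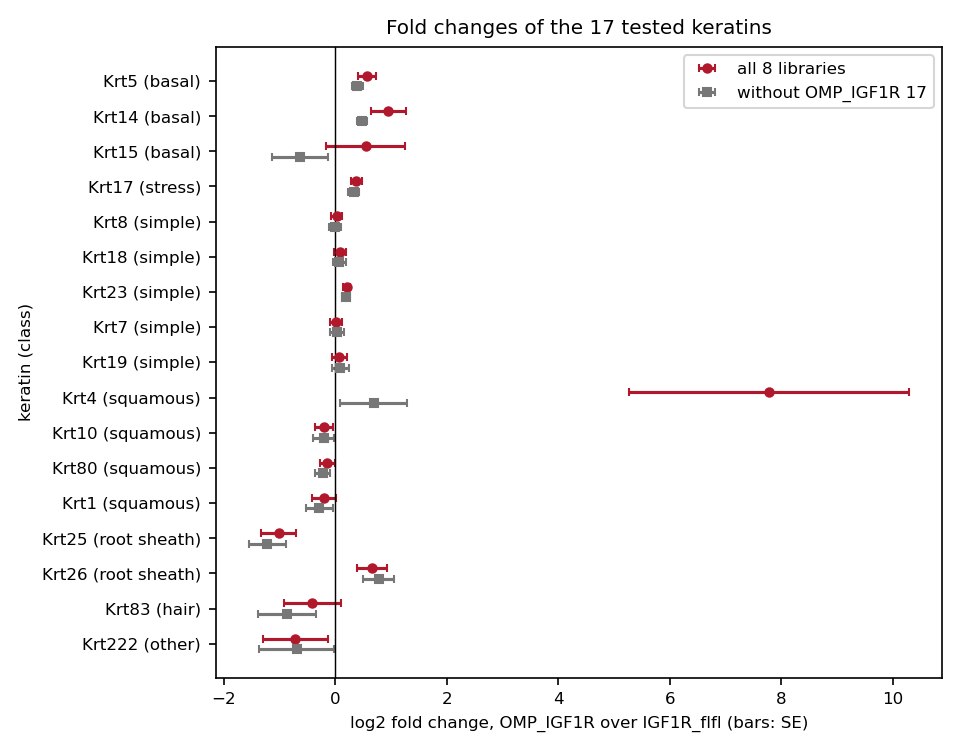
Log2 fold change, OMP_IGF1R over IGF1R_flfl, of each tested keratin with its SE, fitted with all libraries and without OMP_IGF1R 17. Krt5 and Krt14 were positive in both fits, Krt15 changes sign, and Krt4 drops to 0.69 without the library.

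Because filaments are made of pairs, the ratio of type II to type I partner was taken per kilobase within each library. Krt5 over Krt14 was 2.11, 2.14, 1.26 and 2.07 in OMP_IGF1R 11, 12, 17 and 18, against 1.94, 2.43, 2.35 and 2.22 in IGF1R_flfl 1, 2, 3 and 13. Number 17 had relatively more Krt14, and the other values overlapped. Krt8 over Krt18 was 0.688 to 0.808 in OMP_IGF1R libraries and 0.741 to 0.817 in IGF1R_flfl libraries, OMP_IGF1R 17 included at 0.767. Krt8 over Krt19 was 8.39 to 10.7 in OMP_IGF1R and 7.82 to 13.2 in IGF1R_flfl, and Krt1 over Krt10 was 0.0591 to 0.0876 and 0.0577 to 0.0992. For these pairs the groups overlapped. Krt5 over Krt15 was 5.41 in OMP_IGF1R 17 and 15.1 to 36.0 in the other OMP_IGF1R libraries, against 5.76 in IGF1R_flfl 13 and 10.8 to 23.0 in the other IGF1R_flfl libraries. Krt4 over Krt13, where both had 10 reads, was 0.587 in OMP_IGF1R 17 and 1.11 in OMP_IGF1R 18, against 0.238 in IGF1R_flfl 13. Krt6a over Krt16 was 1.43 in OMP_IGF1R 17, against 0.50 in IGF1R_flfl 13, and Krt6a over Krt17 was 1.30 and 0.0595 in the same libraries.

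Of 16 desmosome genes, which anchor keratin filaments between cells, 10 were tested, and 1 was called higher and 0 lower, or 10% beside 8.20% of all genes tested, with a median log2 fold change of 0.19. Dsc3, a desmosomal cadherin of basal layers, had 87.9, 117, 101 and 115 CPM in OMP_IGF1R 11, 12, 17 and 18, against 65.7, 75.8, 62.7 and 83.3 CPM in IGF1R_flfl 1, 2, 3 and 13, and rose by 0.55 (edgeR adjusted p 0.0201). Its groups did not overlap, but the call was lost without OMP_IGF1R 12, OMP_IGF1R 18 or IGF1R_flfl 1, at edgeR adjusted p-values of 0.0634, 0.0659 and 0.0546. Of 9 hemidesmosome genes, which anchor keratin at the basal lamina, all were tested, and 2 were called higher and 0 lower, or 22.2%, with a median of 0.22. Itgb4, the integrin that ties keratin to the basal lamina, rose by 0.29 (edgeR adjusted p 0.0163), and Lamb3, a chain of the laminin it binds, rose by 0.40 (edgeR adjusted p 0.0210). The Itgb4 call was lost without OMP_IGF1R 18 (edgeR adjusted p 0.0619). The Lamb3 call was lost without OMP_IGF1R 11, OMP_IGF1R 18 or IGF1R_flfl 1 (edgeR adjusted p 0.0607, 0.0704 and 0.0549).

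Of 33 rows of cornified envelope genes, the proteins that harden squamous cells, 15 were tested, and 2 were called higher and 0 lower. That is 13.3% beside 8.20% of all genes tested, with a median of 1.13. Without OMP_IGF1R 17 the median was 0.0491, Spink5 was called higher, and Lor and Sprr1b were called lower. Spink5, a protease inhibitor of skin, had 3.37, 8.82, 9.47 and 4.65 CPM in OMP_IGF1R 11, 12, 17 and 18, against 1.99, 1.33, 1.55 and 1.32 CPM in IGF1R_flfl 1, 2, 3 and 13, and rose by 2.08 (edgeR adjusted p 0.00892). Tgm5, a transglutaminase, rose by 1.13 (edgeR adjusted p 0.0283), a call lost on leaving out OMP_IGF1R 12, 17 or 18 or IGF1R_flfl 1 or 3, at edgeR adjusted p-values of 0.0568 (without OMP_IGF1R 18) to 0.0893 (without OMP_IGF1R 12). The list summed to 134, 140, 346 and 135 CPM in OMP_IGF1R 11, 12, 17 and 18, against 133, 104, 135 and 128 CPM in IGF1R_flfl 1, 2, 3 and 13. Of the 33 rows, 25 were highest in OMP_IGF1R 17, some on few reads, as Klk5 with 3 and Klk7 with 9 reads there. The share of all genes highest in that library was not counted. The 10-fold rule was met by 9 of the 33 rows, beside 0.309% of all genes, with Krtdap, Cnfn, Crct1, Tgm3 and Serpinb3a among them.

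Of 18 transcription factors of epithelia 15 were tested, and 1, Dlx3, was called higher by 0.97 (edgeR adjusted p 0.0130) and 0 lower. That is 6.67% of those tested, beside 8.20% of all genes tested, and the median was 0.21. Trp63, which keratinocytes and horizontal basal cells need for their basal state, had 38.1, 49.7, 51.1 and 51.4 CPM in OMP_IGF1R 11, 12, 17 and 18, against 36.1, 37.5, 40.5 and 38.2 CPM in IGF1R_flfl 1, 2, 3 and 13 (log2 fold change 0.32, edgeR adjusted p 0.0682). Of 13 other intermediate filament genes, all tested, 3 were called higher and 0 lower, or 23.1% beside 8.20% of all genes tested. Their median was -0.11, and it was 0.42 without IGF1R_flfl 2, where Gfap was called higher too. Vim, the filament of mesenchyme and of immature neurons, rose by 0.47 (edgeR adjusted p 0.0186), Prph, a neuronal filament, rose by 1.06 (edgeR adjusted p 0.00278) and Bfsp2, known from the lens, rose by 1.35 (edgeR adjusted p 0.0126). The Vim call was lost without OMP_IGF1R 12 or 18 (edgeR adjusted p 0.0543 and 0.0619).

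Markers of other cells were read beside the keratins. Of 10 skeletal muscle genes 4 were tested and 0 were called, with a median of 3.79 that was 0.30 without OMP_IGF1R 17. The 10-fold rule in OMP_IGF1R 17 was met by 8 of the 10, beside 0.309% of all genes. The sum of the 10 genes was 548 CPM in OMP_IGF1R 17 and 5.09 to 8.32 CPM in the other OMP_IGF1R libraries. It was 4.65 to 5.50 CPM in IGF1R_flfl libraries, where the defining heavy chain Myh4 was at 0. IGF1R_flfl 13 therefore had squamous and stress keratin reads at a muscle sum like that of the rest. Of 10 hair follicle genes 3 were tested and 0 were called, with a median of 0.27 (1.02 and 0.92 over 4 tested genes without IGF1R_flfl 2 or 13) and sums of 17.1 to 26.4 CPM in OMP_IGF1R libraries, the highest in number 17, against 10.6 to 17.2 CPM in IGF1R_flfl libraries. The part of these markers in the keratin values of OMP_IGF1R 17 was not tested.

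Of 7 tuft and microvillar markers, cells that also carry simple keratins, 3 were called higher and 0 lower, or 42.9% beside 8.20% of all genes tested. The median was 0.93, with sums of 51.2 to 70.3 CPM in OMP_IGF1R libraries against 26.7 to 36.8 CPM in IGF1R_flfl libraries. Trpm5, the cation channel of these cells, rose by 0.93 (edgeR adjusted p 0.00749), Avil by 1.17 (edgeR adjusted p 0.00694) and Alox5 by 1.01 (edgeR adjusted p 0.00402). Gnat3, Chat, Il25 and Pou2f3 were not called, at log2 fold changes of 1.61, 0.65, 0.56 and 0.05. Pou2f3 averaged 7.17 CPM in OMP_IGF1R and 6.91 CPM in IGF1R_flfl (edgeR adjusted p 0.895). Of 5 gland markers tested 0 were called, with a median of 0.06 (0.27 without IGF1R_flfl 13), and their sum, most of it the odorant-binding protein genes Obp1a and Obp1b, was 503, 1624, 8736 and 544 CPM in OMP_IGF1R 11, 12, 17 and 18, against 371, 4341, 616 and 18870 CPM in IGF1R_flfl 1, 2, 3 and 13. The highest gland sums were those of IGF1R_flfl 13 and OMP_IGF1R 17, the libraries that also led for Krt13, Krt16 and Krt15. The parallel did not extend to the libraries next in gland sum, IGF1R_flfl 2 and OMP_IGF1R 12. Those had 0 reads of Krt13 and Krt16, and 6.78 and 2.90 CPM of Krt15. The gland markers Sox9, Sox10 and Aqp5 did not stand out in OMP_IGF1R 17 or IGF1R_flfl 13. They had 40.6, 45.4 and 307 CPM in OMP_IGF1R 17 and 37.5, 48.3 and 268 CPM in IGF1R_flfl 13. For each of them these values lay within the range of the other libraries. Of 10 respiratory markers tested 3 were called lower (Ccdc39, Ccdc40 and Tekt1) and 0 higher, or 30.0% beside 8.20% of all genes tested. The median was -0.26, and without IGF1R_flfl 13 Muc5ac was called higher. The respiratory list had sums of 15500 to 22360 CPM in OMP_IGF1R and 12700 to 16600 CPM in IGF1R_flfl. Most of each sum was Bpifa1, at 13857 to 20735 CPM in OMP_IGF1R and 11148 to 15062 CPM in IGF1R_flfl. Bpifa1, Muc5b and Muc16 had positive log2 fold changes, and every other tested member had a negative log2 fold change. Of 9 bulb and oligodendrocyte markers tested 1, Eomes, was called lower and 0 higher, or 11.1% beside 8.20% of all genes tested, with a median of -1.14. Without IGF1R_flfl 2 the median was 0.0632, and Cdhr1 and Eomes were called lower. The Eomes call was lost on leaving out any single library other than OMP_IGF1R 17 and IGF1R_flfl 2, at edgeR adjusted p-values of 0.0608 (without IGF1R_flfl 13) to 0.104 (without OMP_IGF1R 18). The part of these cells in the keratin values was not tested.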

How the data were processed

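RNA of olfactory epithelium was sequenced in 8 libraries, 4 per title group. The deposited table holds whole-number read counts per gene, not normalized, as its values show. Per the submitters' processing notes the authors worked on GRCm38 and used TopHat2 2.0.14, SAMtools 1.2, Trim Galore 0.3.7 and DESeq2, the last without a version. Sources used here name neither the counting tool nor its strand setting, so overlapping antisense genes, as at Krt5, Krt6a, Krt6b, Krt7, Krt8, Krt10, Krt76 and Krt80, may share reads. A further 8 per-sample columns, 0 in every row, and the authors' own comparison were not used, and 23 gene identifiers were trimmed of description text.

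The main test was that of edgeR 4.0.16 (quasi-likelihood, TMM, filterByExpr, Benjamini-Hochberg over 17381 genes, threshold 0.05) in R 4.3.3, with limma 3.58.1 voom and DESeq2 1.42.0 as alternatives, beside other scalings, other filters and leaving out libraries. CPM use TMM effective library sizes. Exon lengths are unions of GENCODE M21 exons. The chi-square between replicates averaged 11.4 to 103 over genes in the pairs of a group, so none was counted as a copy. Totals of 18802471 to 27793375 set the depth, and floors of 3 reads cover counting error only. Values in every library are given for keratins called or with a mean of at least 1 CPM, and for each companion list up to 4 called members. Krt25, Krt78 and other low keratins are given by reads. Gene members, classes and lists were chosen with earlier results of these data known. The test was checked on simulated data.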

Additional observations from a re-analysis of the deposited data

Results flagged for a closer look

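In 58 groups of 4 values (the keratins given library by library and the class sums), 26 values stood far outside the rest of their group. The rule marks about 1 group in 20 of unselected, independent values, and these groups were neither. Krt6a, Krt6b, Krt16, Krt13, Krt4, Krt76, Krt24, Krt36 and Krt84 reached the mean of 1 CPM only through OMP_IGF1R 17. The class sums repeat values of single keratins. The count of 26 therefore cannot be set against that rate. OMP_IGF1R 17 lay above the rest of its group for Krt5 (199 CPM), Krt14 (126), Krt15 (29.6), Krt6a (66.4), Krt6b (12.6), Krt16 (30.0), Krt13 (298), Krt4 (205), Krt76 (20.5), Krt24 (6.55), Krt36 (22.0) and Krt84 (13.8). The same library lay above its group for the summed CPM of basal (355), stress (142), squamous (553) and hair keratins (42.7). IGF1R_flfl 13 lay above its group for Krt6a (2.00 CPM), Krt6b (1.23), Krt16 (2.59), Krt13 (1.95), Krt4 (0.545), Krt76 (5.50) and Krt24 (1.54). IGF1R_flfl 2 lay above its group for Krt222 (7.13 CPM) and for the sum of the unclassed keratins (7.12). IGF1R_flfl 3 lay below its group for Krt1 (0.912 CPM).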

How the results depend on the processing

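The number of keratins called higher was 1, and it was 2 with upper-quartile factors, 3 with raw library totals, 3 with DESeq2, 3 with limma voom, 0 to 2 on leaving out one library and 2 without OMP_IGF1R 17 and IGF1R_flfl 13 together. The number called lower was 0, and 0 to 1 on leaving out one library and 1 without that pair. Krt5 was called with upper-quartile factors, raw totals, DESeq2 and voom (adjusted p 0.0469, 0.0287, 0.00281 and 0.0471), and Krt23 with raw totals, DESeq2 and voom (0.0212, 0.0228 and 0.0498). Krt14 was called without OMP_IGF1R 17, alone or together with IGF1R_flfl 2 (0.0150) or 13 (0.0250). DESeq2 gave Krt4 no adjusted p. Of 119 companion genes tested, 12 were called higher (7 to 15 on leaving out a single library) and 14 lower (12 to 16). Over all genes tested the shares were 2.83% higher and 5.37% lower. Of all genes, 492 were called higher and 933 lower in edgeR, 775 and 542 with raw totals, 804 and 1336 with DESeq2, 274 and 483 without OMP_IGF1R 17 and IGF1R_flfl 13, and 189 to 513 and 380 to 964 on leaving out one library.

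On leaving out one library, the log2 ratio of summed CPM ran from 0.25 to 1.47 for stress, -0.34 to 3.24 for squamous, -0.43 to 3.68 for hair and -0.97 to 0.40 for unclassed keratins, against 1.24, 2.86, 3.29 and -0.71 with all. Without OMP_IGF1R 17 and IGF1R_flfl 2 these were 0.19, -0.44, -0.45 and 0.42, and without OMP_IGF1R 17 and IGF1R_flfl 13 the first 3 were 0.31, -0.0702 and -0.19. Among single keratins the log2 fold change turned sign for uncalled ones only. With voom it was -0.25 for Krt15, -0.0185 for Krt7, -0.0047 for Krt8 and 0.0172 for Krt222, and on leaving out one library it ran from -0.63 to 1.13 for Krt15, -0.0432 to 0.11 for Krt7, -0.0429 to 0.11 for Krt8 and -0.98 to 0.41 for Krt222. Without OMP_IGF1R 17 and IGF1R_flfl 2 it was -0.68 for Krt15, -0.0417 for Krt7, -0.0742 for Krt8, -0.0045 for Krt18 and 0.43 for Krt222, and without OMP_IGF1R 17 and IGF1R_flfl 13 Krt15 was at -0.0510. The cause was not tested, and the pair with IGF1R_flfl 13 was chosen after seeing the data. No paired analysis was possible because the numbers in the titles are not shared between the groups. Keratins under about 10 reads cannot show a difference at this depth.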
